A study of Homo sapiens with 6 samples.

Results

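Metallothionein genes, the zinc-sensing transcription factor gene *MTF1* and the zinc exporter gene *SLC30A1* were followed in H146 cells after KIFC1 knockdown. They are 9 genes of the 28395 in the count table, taken by symbol: *MT1E*, *MT1F*, *MT1G*, *MT1M*, *MT1X*, *MT2A*, *MT3*, *MTF1* and *SLC30A1*. The set was chosen with the siKIFC1 and control siRNA values of these libraries known, because metallothioneins were higher with siKIFC1. For that reason the contrast is given for these 9 genes as a description and with no p or call, and test results are given only for other genes.

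Metallothioneins are small cysteine-rich proteins that bind zinc and copper and buffer them inside cells. MTF1 carries zinc fingers, senses free zinc and binds metal response elements in the promoters of metallothionein genes and of *SLC30A1*, whose protein moves zinc out of the cytosol. Metallothionein genes are also known to be switched on by cadmium, oxidants and glucocorticoids, while *MT3* is known mainly from brain and responds poorly to metals.

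RNA was sequenced from H146 (NCI-H146) cells, an established line of neuroendocrine small-cell lung cancer (SCLC), on day 2 after transfection. The 3 control libraries came from cells given a negative control siRNA and labeled wild type. The 3 siKIFC1 libraries came from cells given a siRNA against *KIFC1* and labeled *KIFC1* knockdown, and the labels do not say which of the study's siRNAs was used. The methods name a pair of siRNAs against *KIFC1*, a scrambled control siRNA and lipid transfection. Cells were kept in RPMI medium with fetal bovine serum, and the labels and methods name no metal treatment of them. The libraries held 15392374 to 17754458 counts. *KIFC1* itself was counted 14, 4 and 14 times in the control libraries and 1, 1 and 0 times in the siKIFC1 libraries. All stretches of 32 bases from the *KIFC1* mRNA that occur on the primary chromosomes (100%) also occur on alternate sequences of GRCh38, so its counts may miss reads. Neuroendocrine markers were abundant, their 12 genes summing to 3495 to 3929 CPM (read counts scaled to a common library size) with control siRNA and 3695 to 4270 CPM with siKIFC1. *NEUROD1* had at most 5 counts in any library.

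Promoter sequences are shown because metal response elements are the sites that MTF1 is known to bind. The 250 bases before the start site are given for 3 genes (RefSeq, GRCh38.p14), written 5′ to 3′ on the strand of the gene, with the metal response element core in capitals. The core searched was TGCACNC or TGCGCNC on either strand. The windows are chr16:56608334-56608583 for *MT2A* (plus strand), chr16:56682220-56682469 for *MT1X* (plus strand) and chr1:211579162-211579411 for *SLC30A1* (minus strand).
MT2A: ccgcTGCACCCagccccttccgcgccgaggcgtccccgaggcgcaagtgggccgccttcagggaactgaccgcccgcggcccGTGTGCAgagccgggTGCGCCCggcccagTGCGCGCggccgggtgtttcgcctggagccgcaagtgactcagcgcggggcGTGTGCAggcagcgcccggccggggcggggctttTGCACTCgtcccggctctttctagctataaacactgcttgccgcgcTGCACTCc
MT1X: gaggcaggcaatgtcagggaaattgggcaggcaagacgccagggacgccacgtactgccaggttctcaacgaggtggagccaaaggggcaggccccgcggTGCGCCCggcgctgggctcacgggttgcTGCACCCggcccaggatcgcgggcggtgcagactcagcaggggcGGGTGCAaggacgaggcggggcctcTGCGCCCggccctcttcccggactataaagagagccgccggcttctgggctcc
SLC30A1: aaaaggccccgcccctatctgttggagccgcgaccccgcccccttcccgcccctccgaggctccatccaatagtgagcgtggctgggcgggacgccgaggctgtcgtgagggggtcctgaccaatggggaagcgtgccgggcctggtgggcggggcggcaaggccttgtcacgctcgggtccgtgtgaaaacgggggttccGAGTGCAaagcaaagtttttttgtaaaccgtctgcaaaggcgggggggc

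The *MT2A* window held 7 copies of the core, 5 on the gene's strand and 2 on the other. The *MT1X* window held 4 copies, and 3 of them were on the gene's strand. In *SLC30A1* there was 1 copy, on the opposite strand and 43 to 49 bases before the start. The *MTF1* window (chr1:37859593-37859842, minus strand) held 0 copies. Of 35116 promoter windows of the same length, 24.8% held at least 1 copy, 0.37% at least 4 and 0.0513% at least 6. The antioxidant response element core, TGACNNNGC on either strand, occurred once each in *MT2A*, *MT1X* and *SLC30A1* and in 10.9% of all windows, and no copy overlapped a metal element. A promoter window was given for 4 of the 9 genes, and *MT1E*, *MT1F*, *MT1G*, *MT1M* and *MT3* are named only. The windows of *MT1B*, *MT1H* and *MT4*, which had no reads here, held 3, 8 and 3 copies of the metal element core. These matches are letters in a window and not measured binding sites.

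The 7 metallothionein genes of the set lie together on chromosome 16 of GRCh38. The whole metallothionein cluster there spans 119 kb, from *MT4* (from 56565073), which is not in the set, to *MT1X*. From low to high coordinate they are *MT3* (56589528 to 56591085), *MT2A* (56608584 to 56609497), *MT1E* (56625781 to 56627112), *MT1M* (56632659 to 56633981), *MT1F* (56657959 to 56659303), *MT1G* (56666730 to 56668065) and *MT1X* (56682470 to 56684196). Each has 3 exons in its GENCODE 44 canonical transcript except *MT1E*, whose canonical transcript has 2. *MTF1* (11 exons) lies on chromosome 1 from 37809574 to 37859592, and *SLC30A1* (2 exons) on chromosome 1 from 211571568 to 211579161. The file also lists 9 other metallothionein genes and pseudogenes, *MT1A*, *MT1B*, *MT1H*, *MT4*, *MT1L*, *MT1JP*, *MT1DP*, *MT1IP* and *MT1HL1*. They had 0 counts in every library, except for 1 count of *MT1L* in siKIFC1 replicate 1. A count of 0 allows up to 3 counts in a library, and this floor covers counting error only.

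Metallothionein genes are close copies of each other, which limits how reads can be assigned. Of the 32-base words of each mRNA that occur on the primary chromosomes, 38.5% had more than 1 place for *MT1M*, 33.1% for *MT1E*, 32% for *MT2A*, 30.7% for *MT1G*, 28.9% for *MT1X*, 11.8% for *MT1F* and 3.9% for *MT3*. Reads from such stretches could have been dropped or given to another family member, so levels of single metallothionein genes are uncertain. *MTF1* (3.23%) and *SLC30A1* (0.0171%) shared few words. For *MT2A*, 26.8% of the words also occur on alternate sequences, against 2.75% for *MT1F*, which could lower the counts of *MT2A*.

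*MT1F*, *MT2A* and *MT1X* carried most of the metallothionein reads. Compared per length, as CPM per kilobase of canonical mRNA, *MT1F* was the highest of the 9 genes in control cells at 25.6 ± 3.30 (SD, n = 3). *MT2A* followed at 19.9 ± 2.55 and *MT1X* at 12.0 ± 2.28 CPM per kilobase (SD, n = 3). These 3 stood at percentiles 79.5, 73.6 and 60.6 of the 14324 tested genes with a length. Next came *MT1G* at 4.28 ± 1.48, *MT3* at 3.51 ± 1.96 and *MTF1* at 2.16 ± 0.197 CPM per kilobase (SD, n = 3). The lowest were *SLC30A1* at 1.37 ± 0.0237, *MT1E* at 1.30 ± 0.251 and *MT1M* at 0.242 ± 0.228 CPM per kilobase (SD, n = 3). The control ranges of *MT1F* and *MT2A* overlapped, and words shared with alternate sequences could affect their order. Ranges also overlapped for *MT1G* and *MT3*, for *MT3* and *MTF1*, and for *SLC30A1* and *MT1E*. The other neighbors in this order did not overlap. In siKIFC1 libraries the order was the same except that *MT1E* stood above *SLC30A1*.

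The summed level of the 7 metallothionein genes was 28 ± 4.53 CPM with control siRNA and 39.4 ± 7.57 CPM with siKIFC1 (SD, n = 3). By replicate number it was 32.5, 27.9 and 23.5 CPM in the control libraries and 44.3, 43.2 and 30.7 CPM in the siKIFC1 libraries. The groups overlapped, because siKIFC1 replicate 3 lay below control replicate 1. Within each replicate number the siKIFC1 library was the higher, by 1.36-fold, 1.55-fold and 1.31-fold. A larger amount of metallothionein RNA per cell and a larger share of cells that express it cannot be told apart in bulk RNA. In all, the sum rests on 431 to 694 reads per library.

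*MT2A*, the main metallothionein of most human cells, had from 126 to 221 counts in a library. Its level was 9.06, 7.89 and 7.02 CPM with control siRNA and 14.1, 12.8 and 8.94 CPM with siKIFC1. Control replicate 1 and siKIFC1 replicate 3 were almost level, so the groups overlapped. The fitted log2 fold change of *MT2A*, siKIFC1 against control siRNA, was 0.58 (standard error, SE, 0.20), and within replicate numbers the log2 ratio was 0.64, 0.70 and 0.35.

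*MT1X*, a metal-inducible member of the *MT1* group, was counted 95, 79 and 71 times in the control libraries and 125, 121 and 112 times in the siKIFC1 libraries. Its level was 5.70, 4.95 and 3.87 CPM with control siRNA and 7.98, 7.97 and 6.86 CPM with siKIFC1. All siKIFC1 libraries lay above all control libraries. For *MT1X* the log2 fold change was 0.65 (SE 0.20), and its log2 ratio within replicate numbers was 0.48, 0.68 and 0.82.

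*MT1G* was counted 39, 18 and 33 times in the control libraries and 64, 56 and 40 times in the siKIFC1 libraries, or 2.34, 1.13 and 1.80 CPM against 4.09, 3.69 and 2.45 CPM. The groups did not overlap, but control replicate 1 and siKIFC1 replicate 3 were close. The log2 fold change of *MT1G* was 0.95 (SE 0.31), the highest of the 8 fitted genes. Its log2 ratio within replicate numbers was 0.80, 1.68 and 0.44. The log2 fold change of *MT1G* was 0.72 without control siRNA replicate 2 and 1.21 without control siRNA replicate 1. *MT1E* was counted 17, 18 and 14 times in the control libraries and 30, 20 and 25 times in the siKIFC1 libraries. The groups of *MT1E* did not overlap either, and its log2 fold change was 0.71 (SE 0.31), with log2 ratios of 0.89, 0.22 and 0.98 within replicate numbers.

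*MT1F*, the most abundant of the family here, had a smaller difference than *MT2A* and *MT1X*, which was not tested. It had 12.1, 11.2 and 9.37 CPM with control siRNA and 14.0, 15.1 and 9.92 CPM with siKIFC1. The groups overlapped, and siKIFC1 replicate 3 lay below control replicates 1 and 2. For *MT1F* the log2 fold change was 0.26 (SE 0.18), with 0.13 without siKIFC1 replicate 2, 0.16 without control siRNA replicate 3 and 0.42 without siKIFC1 replicate 3. Its share of the summed metallothionein CPM averaged 39.1% with control siRNA and 33.0% with siKIFC1, while that of *MT1G* averaged 6.30% and 8.58%. *MT1M* had 3, 0 and 2 counts in the control libraries against 3, 6 and 6 in the siKIFC1 libraries, was too low for the filter and was not fitted.

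*MT3*, which binds zinc and copper but is poorly metal-inducible, was counted 35, 26 and 10 times in the control libraries and 31, 29 and 10 times in the siKIFC1 libraries. Both libraries of replicate number 3 were low, at 0.545 and 0.612 CPM, and the other 4 libraries lay between 1.63 and 2.10 CPM. The low values of *MT3* thus fell on 1 replicate number and not on 1 siRNA group. The fitted change of *MT3* on the log2 scale was 0.08 (SE 0.49), and it lay between -0.32 without control siRNA replicate 3 and 0.48 without control siRNA replicate 1. It was also below 0 without siKIFC1 replicate 1 (-0.17) or 2 (-0.13).

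The regulator and the exporter had different values. *MTF1* was counted 257, 295 and 323 times in the control libraries and 233, 243 and 363 times in the siKIFC1 libraries, or 17.2 ± 1.57 and 17.7 ± 3.96 CPM (SD, n = 3). The groups overlapped, the log2 fold change of *MTF1* was 0.05 (SE 0.17), and it turned to -0.15 without siKIFC1 replicate 3 and to -0.03 without control siRNA replicate 1. *SLC30A1* was counted 132, 131 and 148 times in the control libraries and 139, 148 and 195 times in the siKIFC1 libraries. Its level was 7.92, 8.20 and 8.06 CPM with control siRNA and 8.88, 9.75 and 11.9 CPM with siKIFC1. The 3 control libraries were nearly equal and all siKIFC1 libraries lay above them. For *SLC30A1* the log2 fold change was 0.34 (SE 0.17), with log2 ratios of 0.16, 0.25 and 0.57 within replicate numbers, and it was 0.21 without siKIFC1 replicate 3. Replicate number 3 had the largest ratio for *SLC30A1*, *MT1X* and *MT1E* and the smallest for *MT2A*, *MT1F* and *MT1G*.

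**Figure D1:**
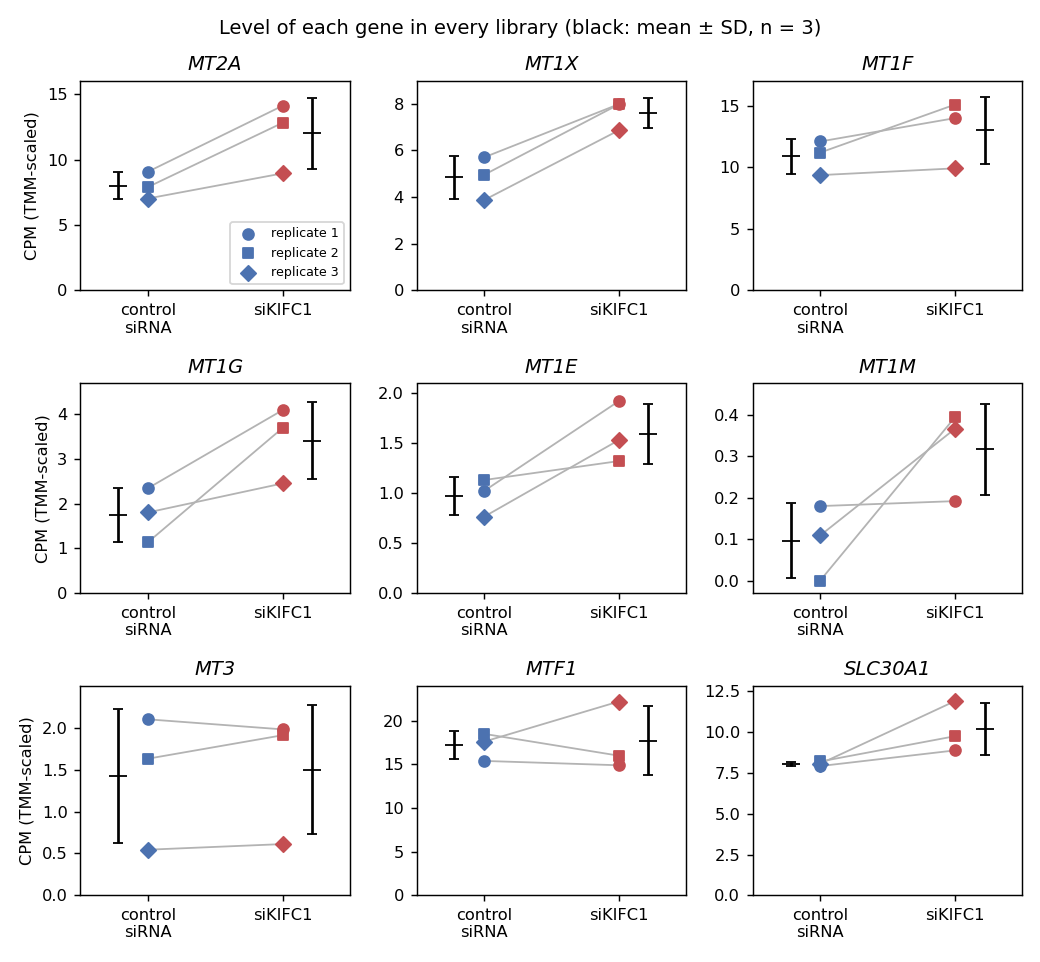
Level in CPM (TMM-scaled, y axis) of the 9 genes in the 3 control siRNA (blue) and 3 siKIFC1 (red) libraries, with lines that join libraries of the same replicate number and black bars for the mean and SD. The groups do not overlap for *MT1X*, *MT1G*, *MT1E* and *SLC30A1*, where 7.99% of all genes tested had siKIFC1 above without overlap. For *MT1M*, control replicate 1 and siKIFC1 replicate 1 both had 3 counts and are set apart by library scaling only. *MT3* is low in both libraries of replicate number 3.

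Of the 9 genes, 8 passed the filter on low counts, and all 8 had a log2 fold change above 0 with a median of 0.46. The median of the 6 metallothioneins among them was 0.62, and that of the 14776 genes tested was 0.01. The groups did not overlap in CPM for 4 of the 8, all with siKIFC1 above, against 7.99% of all genes (7.51% had siKIFC1 below). The siKIFC1 library was the higher in all 3 replicate numbers for 6 of the 8, against 19.5% of all genes (19.4% were lower in all 3). Since the genes were chosen on this contrast, nothing is read from these counts.

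**Figure D2:**
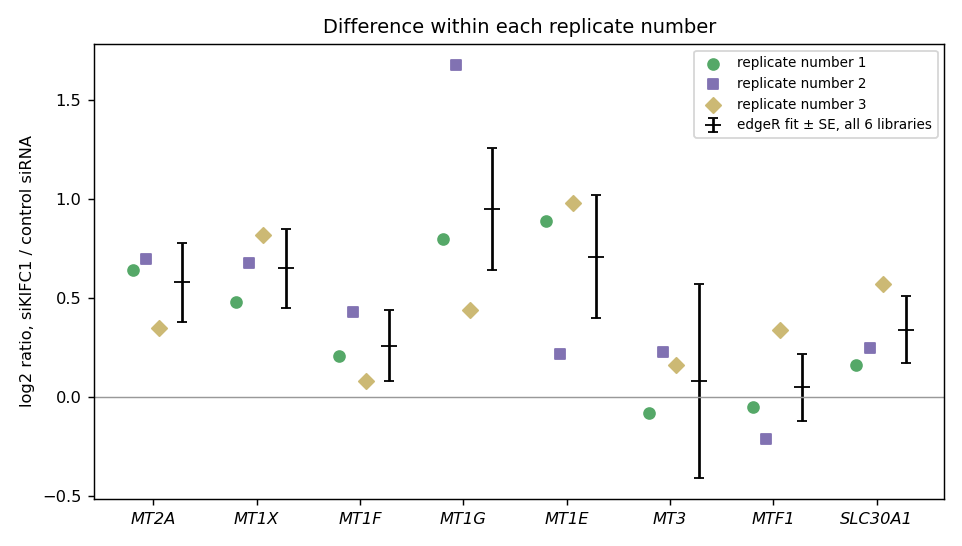
The log2 ratio of siKIFC1 to control siRNA (y axis) within each replicate number (colored points) for the 8 genes that passed the filter on low counts, beside the fitted log2 fold change with its SE (black). Every point of *MT2A*, *MT1X*, *MT1F*, *MT1G*, *MT1E* and *SLC30A1* lies above 0, while those of *MT3* and *MTF1* fall on both sides.

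Other measures were set beside these values. The mRNAs of the metallothioneins are short, from 398 to 746 bases. The 196 other genes with an mRNA of up to 450 bases had a median log2 ratio of -0.03, 0.11 and -0.09 in replicate numbers 1, 2 and 3, where the 6 fitted metallothioneins had 0.56, 0.56 and 0.39. *MT1E*, at 746 bases, is longer than that limit. The 528 other genes above 450 and up to 800 bases had medians of 0.12, 0.05 and 0.02. The share of counts on mitochondrial genes ran from 8.37% to 11.6% with control siRNA and from 8.34% to 13.1% with siKIFC1, and was highest in siKIFC1 replicate 2. Among markers of other cell types, the 6 blood genes summed to 3.69 to 5.88 CPM with control siRNA and 5.20 to 6.65 CPM with siKIFC1, with *HBB* at 0 counts in every library and *CD3E* at 3 or fewer. Of the 3 blood genes that passed the filter, all had a log2 fold change above 0, and 1 had an unadjusted p under 0.05 in edgeR. At that threshold 4.71% of all genes were higher and 4.53% lower. The 6 fibroblast genes summed to 11.6 to 17.1 CPM and 12.2 to 14.9 CPM, with *COL1A2* at 113 to 197 counts and *DCN* at 0 or 1. Of the 3 fibroblast genes that passed the filter, 1 had a log2 fold change above 0 and 2 below. The 3 squamous genes summed to 20.8 to 27.8 CPM and 16.1 to 27.3 CPM, almost all from *TP63*. The part of mRNA length, of these markers and of mitochondrial reads in the metallothionein values was not tested.

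Whether the neighbors of the cluster shared the difference was asked of the genes within 500 kb of it on chromosome 16. Of 17 such genes, 10 passed the filter, 5 with a log2 fold change above 0 and 5 below, and their median was 0.00. With an adjusted p under 0.05, edgeR's quasi-likelihood test called 0 of them, and 1 of the 10 had an unadjusted p under 0.05, where 4.71% of all genes were higher and 4.53% lower at that threshold. That gene was *HERPUD1*, an endoplasmic reticulum stress gene, at 49.0 ± 5.80 CPM with control siRNA and 61.2 ± 2.35 CPM with siKIFC1 (SD, n = 3), a log2 fold change of 0.32 (SE 0.12, edgeR adjusted p = 0.359). Under the replicate block its adjusted p was 0.0379 in edgeR, and the highest value over the alternatives was 0.972. *NUP93*, the closest gene on the high side, had a log2 fold change of 0.04 (SE 0.11), and *BBS2*, the closest on the low side, of 0.02 (SE 0.11). The largest value among the neighbors was that of *NLRC5*, a gene of the MHC class I pathway, at 0.64 (SE 0.47, edgeR adjusted p = 0.778). It rests on 3 counts in control replicate 1 against 18 to 22 in the other libraries, and is 0.18 without that library and 1.04 without control replicate 2. *NUP93*, *BBS2* and *NLRC5* are named after their values were seen.

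**Figure D3:**
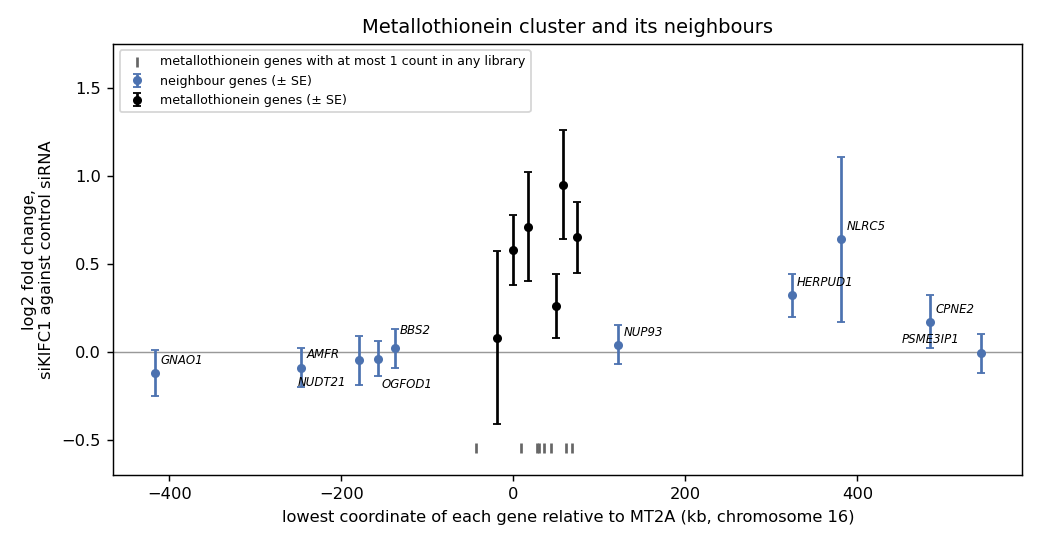
The log2 fold change with its SE (y axis) of metallothionein genes (black, from low to high coordinate *MT3*, *MT2A*, *MT1E*, *MT1F*, *MT1G* and *MT1X*) and of their neighbors (blue) by distance from *MT2A* in kb. Grey ticks mark 8 other metallothionein genes and pseudogenes of the cluster with at most 1 count in any library, and the nearest neighbors *BBS2* and *NUP93* lie near 0.

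Whether other genes of a metal response differed was asked of lists that do not hold the 9 genes. None of the 7 other zinc exporter genes of the *SLC30* family that passed the filter, of 9, had an adjusted p under 0.05 in edgeR's quasi-likelihood test. An unadjusted p under 0.05 was found for 1 gene, where 4.71% of all genes were higher and 4.53% lower at that threshold. The gene was *SLC30A9*, which codes for a mitochondrial zinc exporter and was at 111 ± 9.89 CPM with control siRNA and 86.4 ± 10.6 CPM with siKIFC1 (SD, n = 3). Its log2 fold change was -0.36 (SE 0.12, edgeR adjusted p = 0.311), and the groups did not overlap. Under the replicate block the adjusted p of *SLC30A9* was 0.0113 in edgeR, and the highest value over the alternatives was 0.757.

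Of 14 zinc importer genes of the *SLC39* family, 10 passed the filter, and 0 had an adjusted or an unadjusted p under 0.05 in edgeR. Their median log2 fold change was 0.02, with 6 genes above 0 and 4 below. The largest were *SLC39A8*, which imports zinc and manganese, with a log2 fold change of 0.27 (SE 0.16, edgeR adjusted p = 0.709), and *SLC39A9* with 0.14 (SE 0.10, edgeR adjusted p = 0.791), or 0.07 without siKIFC1 replicate 3. *SLC39A10*, a zinc importer gene that MTF1 is known to repress, had a log2 fold change of -0.12 (SE 0.13, edgeR adjusted p = 0.873). It is named after its values were seen. *SLC39A7* had at most 1 count, and all of its 32-base words on the primary chromosomes (100%) also occur on alternate sequences, so it could not be assessed.

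Of 11 copper handling genes, 10 passed the filter, with a median log2 fold change of 0.01, and 0 had an adjusted p under 0.05 in edgeR. The copper-transporting ATPase gene *ATP7A* was at 6.88 ± 0.694 CPM with control siRNA and 8.97 ± 0.886 CPM with siKIFC1 (SD, n = 3). Its log2 fold change was 0.38 (SE 0.17, edgeR adjusted p = 0.522), and 1 gene of the list, *ATP7A*, had an unadjusted p under 0.05. Among all genes, 4.71% were higher and 4.53% lower at that threshold. The vesicular copper transporter gene *SLC31A2* had a log2 fold change of -0.25 (SE 0.21, edgeR adjusted p = 0.820).

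Of 7 genes with reported MTF1 control, which include the importer *SLC39A10* and the oxidant response gene *GCLC*, 5 passed the filter, 1 with a log2 fold change above 0 and 4 below, and 0 had an adjusted p under 0.05 in edgeR. The iron exporter gene *SLC40A1* was at 4.10 ± 0.942 CPM with control siRNA and 2.56 ± 0.4 CPM with siKIFC1 (SD, n = 3). Its log2 fold change was -0.68 (SE 0.25, edgeR adjusted p = 0.355), with groups that did not overlap. *GCLC*, which codes for the catalytic subunit of the enzyme that starts glutathione synthesis, had a log2 fold change of 0.30 (SE 0.11, edgeR adjusted p = 0.351). Both had an unadjusted p under 0.05 in edgeR, where 4.71% of all genes were higher and 4.53% lower.

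Oxidant response genes lay mostly above 0. All 15 passed the filter, 11 had a log2 fold change above 0 and 4 below, and the median was 0.12. Of all 14776 genes tested, 7698 were above 0. In edgeR's quasi-likelihood test 0 of the 15 had an adjusted p under 0.05, and 3 had an unadjusted p under 0.05. At the unadjusted threshold 4.71% of all genes were higher and 4.53% lower. Under the replicate block 3 of the 15 were called higher in edgeR, against 2.72% of all genes. They were *NQO1*, a quinone reductase gene and NRF2 target, the peroxiredoxin gene *PRDX1* and the ferritin light chain gene *FTL*. *NQO1* had 27.9, 36.6 and 26.1 CPM with control siRNA and 39.5, 42.1 and 39.1 CPM with siKIFC1, a log2 fold change of 0.41 (SE 0.14, edgeR adjusted p = 0.301, and 0.0108 with the block). The log2 fold change was 0.28 (SE 0.12) for *PRDX1* and 0.25 (SE 0.13) for *FTL*, with adjusted p of 0.0215 and 0.0379 with the block in edgeR. The log2 fold change of *PRDX1* was 0.17 on leaving out siKIFC1 replicate 1 and 0.18 on leaving out control siRNA replicate 3, and that of *FTL* was 0.12 without control siRNA replicate 3. Words with more than 1 place on the primary chromosomes made up 47.4% for *FTL*, 11.8% for *PRDX1* and 9.74% for *NQO1*, which makes their counts less certain. Over the alternatives the adjusted p of these 3 genes ranged up to 1.00. *ABCC1*, an export pump gene and one of the 11 above 0, has 97.5% of its 32-base words also on alternate sequences, so its counts of 44 to 71 may miss reads. *HMOX1*, the heme oxygenase gene that cadmium and other heavy metals strongly induce, had 61, 79 and 51 counts in the control libraries against 74, 83 and 60 in the siKIFC1 libraries. The groups overlapped, and the log2 fold change of *HMOX1* was 0.29 (SE 0.25, edgeR adjusted p = 0.826), with 0.10 on leaving out control siRNA replicate 3, 0.15 on leaving out siKIFC1 replicate 2 and 0.52 on leaving out control siRNA replicate 2. *ABCC1* and *HMOX1* are named after their values were seen.

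Heavy metals are also known to induce heat shock genes. Of 12 genes, 10 passed the filter, 4 with a log2 fold change above 0 and 6 below. *HSPB1*, which codes for the small heat shock protein HSP27, rose from 75.4, 68.1 and 57.8 CPM to 132, 127 and 101 CPM. Its log2 fold change was 0.84 (SE 0.14, quasi-likelihood adjusted p = 0.0197 in edgeR), and with each library left out in turn it stayed between 0.74 and 0.95. The call was lost without control siRNA replicate 2 (adjusted p = 0.0951), control siRNA replicate 3 (adjusted p = 0.128) or siKIFC1 replicate 1 (adjusted p = 0.0699, all in edgeR), and over the alternatives the adjusted p ran from 1.49e-07 to 0.128. With all libraries and no block, *HSPB1* was the only gene called among the 64 genes of all these lists that passed the filter, where 0.711% of all genes were called, 0.332% higher and 0.379% lower. Under the replicate block 4 of the 64 were called higher and 2 lower, against 5.78% of all genes, 2.72% higher and 3.06% lower. *DNAJB1*, which codes for a co-chaperone of HSP70, had 216, 229 and 219 CPM with control siRNA and 167, 168 and 154 CPM with siKIFC1. Its groups lay far apart, and its log2 fold change was -0.44 (SE 0.10, edgeR adjusted p = 0.0675). Under the replicate block the adjusted p of *DNAJB1* was 0.000492 in edgeR, with DESeq2's Wald test it was 0.00315, and over the alternatives it ranged up to 0.401. More than 1 place on the primary chromosomes was found for 28.5% of the 32-base words of *HSPB1* and 16.5% of those of *DNAJB1*. Reads of both genes could thus have been dropped or given to another place. *HSPA1A* and *HSPA1B*, the stress-inducible HSP70 genes, had at most 4 counts, and 98.6% and 98.7% of their 32-base words also occur on alternate sequences, so they could not be assessed.

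Of 11 genes of the glucocorticoid response, the receptor gene *NR3C1* included, 9 passed the filter, with a median log2 fold change of 0.09, and 0 had an adjusted p under 0.05 in edgeR. *ERRFI1*, a feedback inhibitor of EGF receptors, had a log2 fold change of 0.35 (SE 0.14, edgeR adjusted p = 0.411) and was the only one with an unadjusted p under 0.05. Among all genes, 4.71% were higher and 4.53% lower at that threshold. *NR3C1* had a log2 fold change of 0.31 (SE 0.16, edgeR adjusted p = 0.594), and 0.11 without siKIFC1 replicate 3. *CDKN1C*, another gene of this list, has 96.7% of its 32-base words also on alternate sequences and is named after its values were seen.

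The genes whose levels over the 6 libraries were most like the summed metallothionein level were *MAGEA3* (Pearson r = 0.998), *QDPR* (r = 0.994), *GIPC1* (r = 0.989), *BCL7B* (r = 0.988) and *VAT1* (r = 0.988). They were taken from 6656 genes with a mean log2 CPM of at least 5, compared over 6 libraries on the log2 scale. With so few libraries, 63 of the genes had an r of at least 0.95. The metallothioneins were chosen as higher with siKIFC1 and the group difference was left in, so genes higher with siKIFC1 were favored. The log2 fold changes of the 5 named genes ran from 0.20 (*QDPR*) to 0.46 (*GIPC1* and *VAT1*). *MAGEA3* had 159, 148 and 135 CPM with control siRNA and 191, 192 and 156 CPM with siKIFC1, with siKIFC1 replicate 3 the lowest of its group as for *MT2A*. *MAGEA3* is a cancer-testis antigen gene with a near-identical copy, so its counts are uncertain.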

How the data were processed

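The authors aligned reads to GRCh38 with HISAT2 2.2.1 and counted them with featureCounts 2.0.8, and deposited raw read counts per gene ID. The annotation, strand setting and treatment of reads with several places are not given in the sources used here. Symbols were matched for 27745 of 28395 gene IDs. Counts were filtered (filterByExpr, 14776 genes kept), scaled by TMM (factors 0.975 to 1.04) and tested with edgeR 4.0.16 (robust quasi-likelihood, Benjamini-Hochberg, two-sided, threshold 0.05) in R 4.3.3. DESeq2 1.42.0 and limma-voom (limma 3.58.1) were alternatives. CPM is TMM-scaled, and log2 ratios within replicate numbers used a prior count of 0.5. Per-length levels used GENCODE 44 canonical transcripts, and places of 32-base words were counted on GRCh38 with 261 alternate sequences. Every percentage of words is taken over those that occur on the primary chromosomes. Libraries of the same replicate number deviated together from their group means (correlations 0.485, 0.411 and 0.49 over 11718 genes, different numbers -0.459 to 0.0219), so the numbers were taken to pair the samples. The labels call the replicates biological. On simulated counts for the siKIFC1 contrast the test without the block recovered 160 of 200 changed genes among 14647 genes with 14 false calls, and the block 162 among 14612 with 20. With no gene changed, false calls were 0 without the block and 11 with it. The simulated libraries held no effect of replicate number. These counts therefore cannot show the error of either test on libraries that pair by number. The 9 genes and the lists were chosen with earlier results of these data known. In each list the genes named were those called with or without the block, otherwise the 2 with the largest absolute log2 fold change, and the 5 genes most correlated with the summed metallothioneins were named.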

Additional observations from a re-analysis of the deposited data

How the results depend on the processing

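With the main test, 49 of all genes were called higher and 56 lower. DESeq2's Wald test called 126 higher and 148 lower, no filter on low counts 121 and 144, and the replicate block 402 and 452. Leaving out single libraries gave calls from 9 to 194 higher and from 15 to 274 lower, lowest without control siRNA replicate 3 and highest without siKIFC1 replicate 3. Among the metal, oxidant, heat shock and glucocorticoid genes, 1 was called higher and 0 lower. The replicate block called 4 higher and 2 lower, and DESeq2's Wald test and no filter each called 1 lower. With libraries left out, 0 to 1 were called higher (0 on leaving out control siRNA replicate 2, control siRNA replicate 3 or siKIFC1 replicate 1) and 0 to 2 lower (2 without siKIFC1 replicate 3). Among the neighbors of the cluster, the block called 1 higher in place of 0. The block changed no other call among the genes of these lists. The cause of these differences was not tested. Depth limits *MT1M*, *MT1E*, *MT3* and *KIFC1*, which had at most 35 counts in any library. It also limits *MT1G*, which had 18 to 64 counts. Shared sequence limits the single metallothionein genes. Intervals for counting error were not computed.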
